A study of Mus musculus with 11 samples.

Results

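The livers of wild-type mice and of mice with an Akt1 double transgene, both groups kept on a high-fat diet, were compared to ask how muscle growth driven by Akt1 bears on gene expression in the liver. The 8 arrays of the comparison were chosen by their labels out of 11 in the study, and each array held the RNA of one mouse. The transgenic group (n = 4) carried the Akt1 double transgene and is labelled with muscle hypertrophy, whereas the wild-type high-fat group (n = 4) has none. The remaining arrays came from wild-type mice on a normal diet (n = 3), which entered the fit and are given here as the level without a high-fat diet. All 11 mice were male, of a mixed genetic background, and received doxycycline for 3 weeks, so the drug is shared by every group. Age and length of the diet were not given in the sources used here, nor was the promoter that drives the transgene. Transgenic mice on the normal diet and carriers of a single transgene were not analysed here.

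Akt1 is a kinase that acts downstream of the insulin and growth factor receptors, and raising its activity in skeletal muscle enlarges the fibres. The liver and muscle exchange glucose, amino acids, lipids and secreted factors through the blood. Among the best known liver programs that answer a signal from the blood is the acute phase response, in which interleukin-6, through STAT3, and interleukin-1, through NF-kB and C/EBP factors, make hepatocytes secrete plasma proteins such as serum amyloid A and orosomucoid. The same signals are known to lower many enzymes of drug and steroid metabolism. Hepatocytes are mostly quiescent, and when they enter the cell cycle replication licensing factors and enzymes of nucleotide supply are among the genes switched on early.

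Each array gave a linear MAS5 signal for 22690 probe sets, scaled to a trimmed mean of 500.251 to 500.285. Transgenic arrays 3 and 4 stood apart, with top signals of 42426 and 43273 against 27780 to 35450 on the other 9 arrays, and array 3 had the lowest poly-A spike signal (113.3, against 276.9 to 467.6). The liver labels fitted the markers, since 10 of 10 hepatocyte markers on the array were above the limit for dim probe sets (a signal of about 53), with a summed signal of 190900 to 200100 in wild-type and 190800 to 261900 in transgenic high-fat arrays. Of 15 skeletal muscle markers, 14 had a mean under that limit, and the sum of all 15 was 337.7 to 515.6 in wild-type and 329.6 to 518.2 in transgenic arrays. The brighter Akt1 probe set gave 446, 585, 434 and 519 in transgenic and 447, 421, 513 and 489 in wild-type high-fat arrays. These ranges overlapped, and the difference was 0.08 ± 0.13 (log2, SE). A probe set designed on the mouse gene need not detect a transgene, and none of these liver values tests the label of the muscle.

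The response of the liver was limited in number and went both ways. Of 7924 genes tested, 29 (0.366%) had a limma adjusted p under 0.05, 18 of them higher (0.227%) and 11 lower (0.139%) in transgenic mice, and these are the genes said here to have risen or fallen. Differences are log2 values with limma's standard error, folds are back-transformed from them, and a lone value in parentheses after a difference is the limma adjusted p. Genes with an unadjusted p under 0.05 numbered 1085 (13.7%), 551 higher (6.95%) and 534 lower (6.74%). High-fat arrays of the groups were fully apart for 666 genes (8.4%), 342 higher (4.32%) and 324 lower (4.09%). Counts for the gene lists below are to be read beside these shares. The lists are small and were chosen with earlier results of these data known, so 0 calls in a list is no result about it. The median log2 difference over all genes was 0.001, yet the upper tail was longer: 112 genes lay above 1 and 44 below -1. Of the genes that rose, 11 of 18 were among the 1981 brightest genes, with mean signals from 1020, and 7 among the 1981 with signals between 163 and 383. In the 1981 dimmest genes, where the median standard error of a difference was 0.285 against 0.12 in the brightest, 0 genes passed in limma's test. In all 29 called genes every transgenic array lay beyond every wild-type high-fat array, against 8.4% of all genes tested. Every transgenic array also lay beyond every normal-diet array for 16 of the 18 that rose and 11 of the 11 that fell. That share was not counted over all genes. All 11 arrays entered the fit that picked the 29, so neither count is further support for them. The array holds 14 other probe sets for 11 of these genes. All 14 differed in the same direction and 11 had an unadjusted limma p under 0.05. But the groups overlapped in 6 of them, of Ankrd40, Cdt1, Ces1d, Il1rn, Ndufb6 and Saa1. Where a called gene is said below to be without overlap, this refers to the probe set used in the fit.

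**Figure D1:**
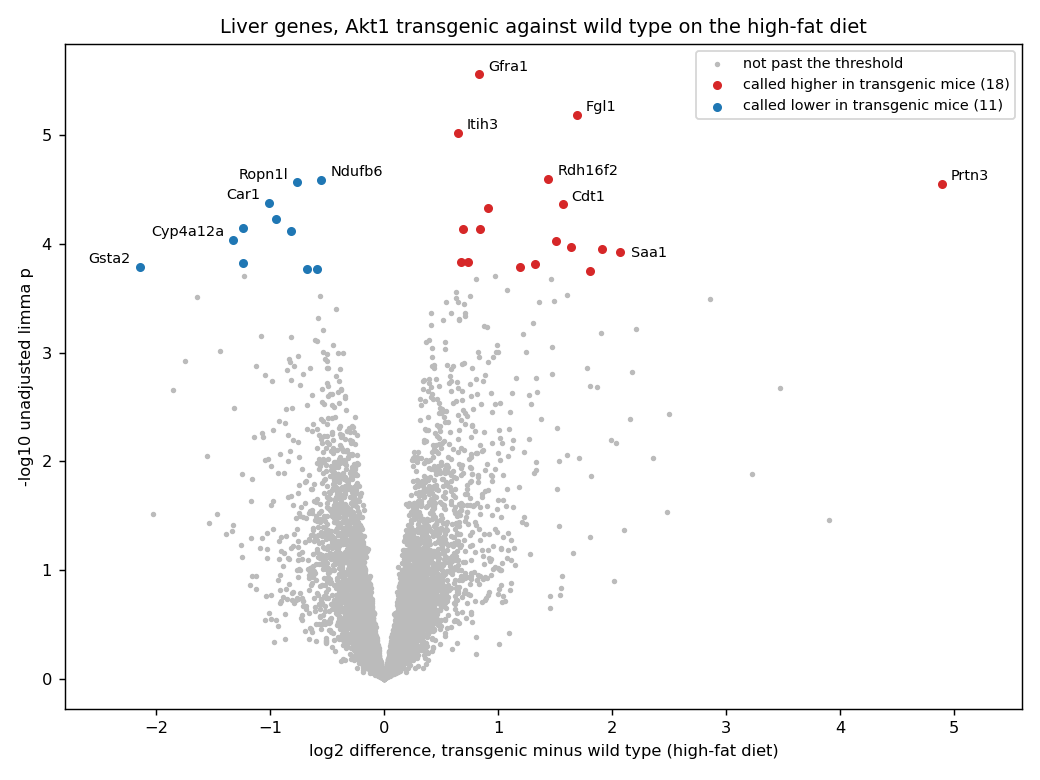
Each point is a gene, with the log2 difference between transgenic and wild-type mice on the high-fat diet on the x axis and the −log10 of the unadjusted limma p on the y axis. The 18 genes that rose and the 11 that fell are coloured, and some of them are named. Of these, Prtn3 lies far to the right at 4.89 and Gsta2 has the lowest difference, -2.14.

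The number of calls rested on few arrays. It was 0 without wild-type high-fat array 1 (with 872 genes at an unadjusted p under 0.05), 64 without array 2, 1 without array 3 and 6 without array 4. Without transgenic arrays 1, 2, 3 and 4 in turn it was 56, 6, 3 and 2. Without transgenic arrays 3 and 4 together 4 genes passed, Cyp4a12a, Csad, Ctsc and Prg4 (the last pair named after their values were seen), whereas 158 passed without transgenic arrays 1 and 2. Sizes moved less than calls. The log2 differences of the 29 genes were 0.638 to 1.2 times their value without transgenic arrays 3 and 4, the lowest for Mme. Each of the 29 kept its sign in all of the 20 other settings in which it was tested. Leaving out arrays could not have reversed a sign, since the high-fat groups did not overlap in these genes. Changing only the eBayes options left the differences as they were.

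**Figure D2:**
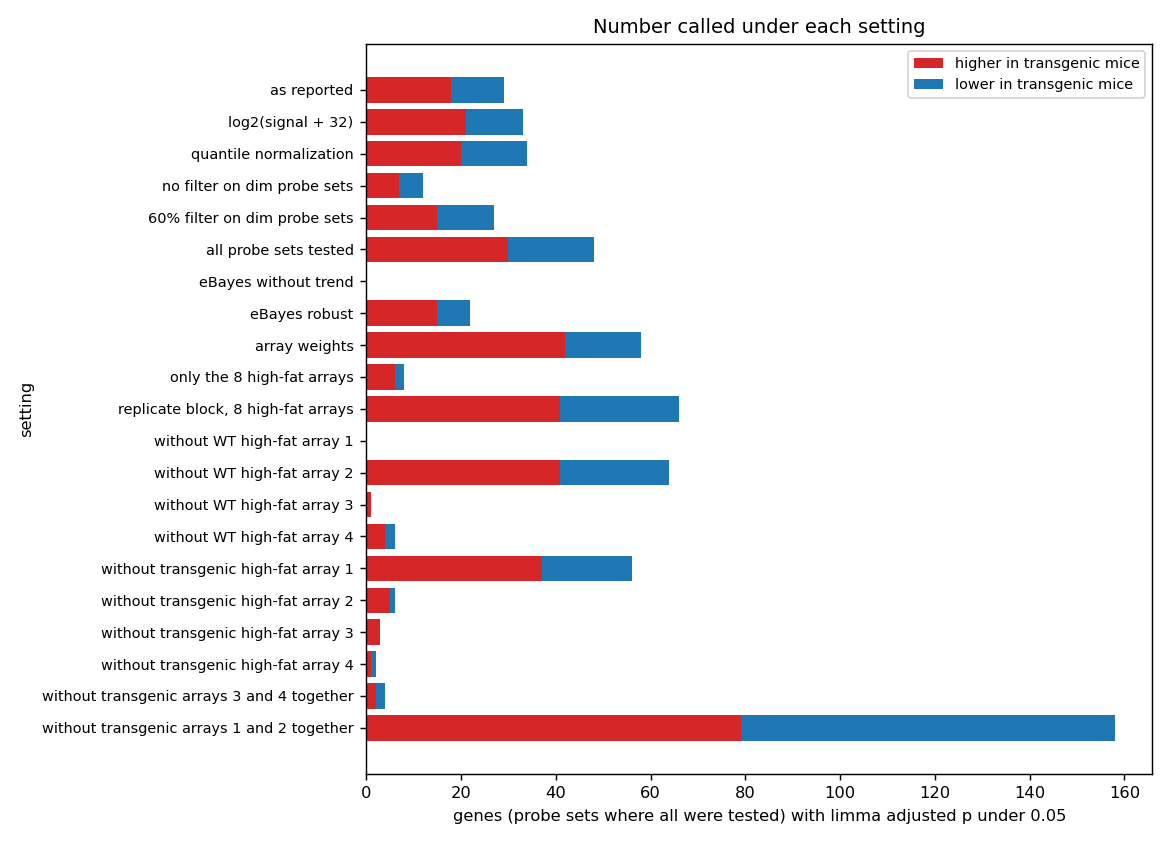
Bars give the number of genes past an adjusted p of 0.05 in limma under each setting, split into higher and lower in transgenic mice. The number ranged from 0 (without an intensity trend, or without wild-type high-fat array 1) to 158 (without transgenic arrays 1 and 2).

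By list, the acute phase genes were the largest group among the genes that rose, with 5 against 4 for DNA replication. The 5 include Il1rn, which is also counted in the interleukin-1 and NF-kB list. Of 30 acute phase genes tested 5 rose and 0 fell, 23 had an unadjusted p under 0.05 in the higher direction, and their median log2 difference was 0.51 against 0.001 over all genes. The median was 0.53 both without transgenic arrays 3 and 4 and without arrays 1 and 2. Among the promoters of these genes, 250 bases before the RefSeq start on GRCm38.p6, those of Saa1 and Il1rn are shown because each holds a short motif of a factor named above. In Saa1 (chr7:46742981-46743230, minus strand) the capitals mark TTGCNNAA, a C/EBP motif, and in Il1rn (chr2:24345121-24345370, plus strand, 1 of 3 listed starts) they mark an NF-kB motif (GGG and TTTCC with 2 bases of any kind between). Both strands were searched.
Saa1: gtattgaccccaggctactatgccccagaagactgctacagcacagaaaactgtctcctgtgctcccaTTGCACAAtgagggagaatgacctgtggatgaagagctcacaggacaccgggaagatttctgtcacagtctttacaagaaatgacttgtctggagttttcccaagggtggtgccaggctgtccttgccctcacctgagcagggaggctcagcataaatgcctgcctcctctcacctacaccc
Il1rn: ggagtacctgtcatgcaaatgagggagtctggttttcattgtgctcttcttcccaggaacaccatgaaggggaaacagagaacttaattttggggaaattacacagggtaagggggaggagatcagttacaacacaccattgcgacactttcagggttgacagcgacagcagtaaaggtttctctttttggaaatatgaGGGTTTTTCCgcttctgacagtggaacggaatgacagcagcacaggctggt
Promoters were matched for 22 of the 29 called genes. Of 32851 promoters, 9.56% hold the first motif and 1.41% the second, so a match is a description of these letters and no evidence of binding.

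Serum amyloid A, a lipoprotein-associated protein that binds lipids and recruits leukocytes, is encoded in part by Saa1. Its signals were 9658, 18531, 19886 and 25388 in transgenic and 2552, 8759.7, 3026 and 4257 in wild-type high-fat arrays, and 861 to 1419.5 on the normal diet. The lowest transgenic array stood just above the highest wild-type array, and the groups did not overlap on this probe set. There Saa1 rose 4.21-fold (log2 2.07 ± 0.37, adjusted p = 0.0465). On its other probe set the difference was 2.11 ± 0.43, but the groups overlapped, with transgenic array 1 at 6982.4 and wild-type array 2 at 8870.6. Fgl1, a fibrinogen-like protein that hepatocytes secrete, gave 15594, 16934, 20776 and 21115 in transgenic and 3783, 4925, 7823 and 7275 in wild-type high-fat arrays, and 3955 to 6172 on the normal diet. The transgenic arrays were close together and far above the wild-type arrays, which overlapped between the diets. The rise was 3.23-fold (1.69 ± 0.22, adjusted p = 0.025).

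Itih3 encodes a heavy chain of the inter-alpha-trypsin inhibitors, which bind hyaluronan. Its signals were 17705, 17493, 19784 and 20968 in transgenic and 13095, 12165, 11326 and 11891 in wild-type high-fat arrays, and 8729 to 10072 on the normal diet. The 3 groups did not overlap, with the normal diet lowest and the transgenic mice highest, and the rise between the high-fat groups was 0.65 ± 0.089 (adjusted p = 0.025). Orm1, an orosomucoid that carries lipophilic molecules in plasma, gave 13729.5, 16095, 13944 and 20149 in transgenic and 9691, 10088, 10278 and 9086 in wild-type high-fat arrays, and 8765 to 9889 on the normal diet. Wild-type arrays overlapped between the diets, and Orm1 rose by 0.69 ± 0.12 in the transgenic mice (adjusted p = 0.0398). Il1rn encodes the secreted antagonist of the interleukin-1 receptor, and was far dimmer, with 225, 402, 533 and 353 in transgenic and 118, 135, 146 and 113 in wild-type high-fat arrays, and 93.5 to 178 on the normal diet. It rose 2.84-fold (log2 1.51 ± 0.26, adjusted p = 0.0436), with array 1 lowest of the transgenic arrays. Members that did not pass included Serpina3n, a protease inhibitor, at 0.75 ± 0.15 (adjusted p = 0.0608), Orm2 at 1.91 ± 0.42 (0.0838) and the metallothionein Mt2 at 2.18 ± 0.53 (0.106). Saa1, Orm1 and Il1rn have close relatives or several starts, and a 3' probe set need not separate near-identical copies such as Saa1 and Saa2 or Orm1 to Orm3. The same holds for Gsta2, Cyp4a12a, Ces1d, Ces1e, Nat8, Rdh16f2 and Ifitm2 below.

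**Figure D3:**
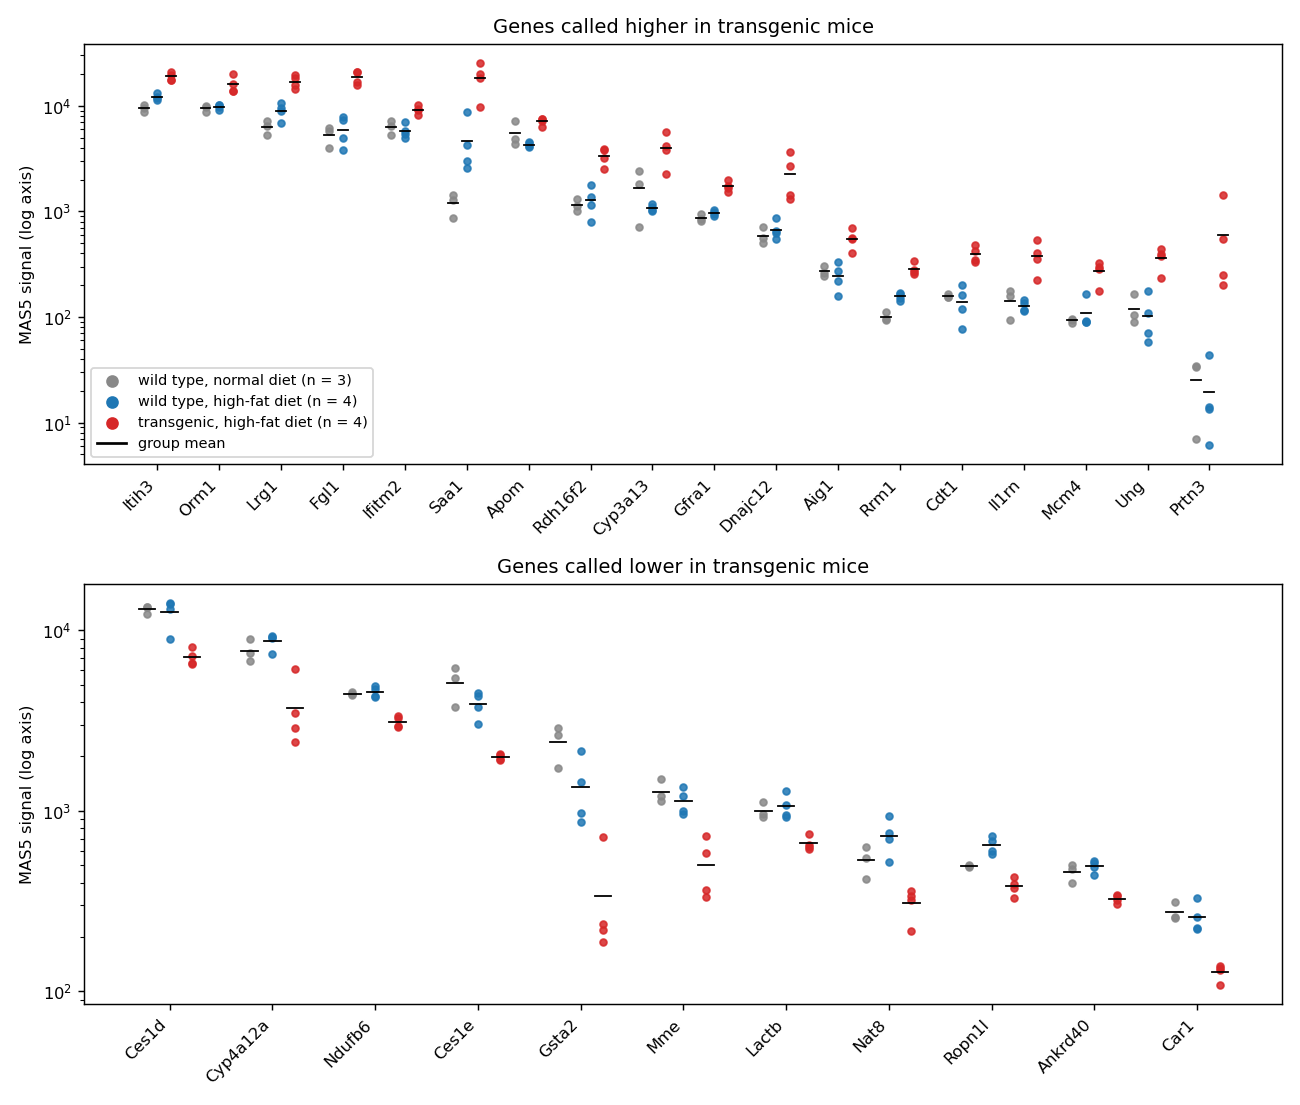
The 29 called genes are shown one by one, with the MAS5 signal of each of the 11 arrays on a log axis, coloured by group, and a bar at each group mean. The transgenic points lie apart from the wild-type high-fat points for every gene, and for Saa1 and Itih3 the normal-diet points are lowest.

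Genes of the cytokine pathways named above mostly lay above 0. Of 20 interleukin-6 and STAT3 pathway genes 0 passed in limma's test, where 0.366% of all genes did. In that list 6 had an unadjusted p under 0.05, each of them higher (6.95% of all genes), and the median was 0.33. Stat3, the transcription factor of the pathway, had signals of 2387, 3309.5, 2660 and 3049.6 in transgenic and 1631, 1821, 1554 and 2242 in wild-type high-fat arrays, and 1228 to 1511 on the normal diet. Its groups did not overlap, at a difference of 0.66 ± 0.14 (adjusted p = 0.0721). Socs3, the feedback inhibitor that STAT3 induces, gave 1394, 828, 840.1 and 1429.6 in transgenic and 201, 275, 102 and 538 in wild-type high-fat arrays, and 123 to 436 on the normal diet. The groups did not overlap here either, though wild-type array 4 came near, and the difference was 2.21 ± 0.48 (0.0801). For Il6ra, the receptor chain that binds interleukin-6, the difference was 0.85 ± 0.23 (0.131), and 2 of the 3 normal-diet arrays were as high as the transgenic ones. In the interleukin-1 and NF-kB list 1 of 18 rose, Il1rn, and the median was 0.11 (0.33 with the filter at 60%). The chemokine Cxcl1, which attracts neutrophils, was at 1.47 ± 0.34 (adjusted p = 0.0959), with 2656, 2681, 3904 and 3259 in transgenic and 688, 1620.5, 696 and 1985 in wild-type high-fat arrays. All 4 transgenic arrays were above all wild-type arrays, which themselves spread widely. The receptor gene Tnfrsf1a was at 0.48 ± 0.13 (0.131). Of 30 complement and coagulation genes 0 passed and 9 had an unadjusted p under 0.05, all higher, with a median of 0.13. The clotting factor gene F10 was nearest, at 0.55 ± 0.11 (adjusted p = 0.0608), with 9673, 9869, 12124 and 11767 in transgenic and 7407, 8301, 6805 and 7117 in wild-type high-fat arrays. Its groups did not overlap.

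Genes of DNA replication and nucleotide supply were the other large group. Of 27 tested 4 rose and 0 fell, 17 had an unadjusted p under 0.05 in the higher direction, and the median was 0.66 (0.65 without transgenic arrays 3 and 4, 0.73 without arrays 1 and 2). It was 0.34 when the dimmest 60% of probe sets were dropped in place of 40%, and 0.52 on log2(signal + 32). In the wild-type high-fat mice 9 of the 27 had a mean under 100, and since the filter takes the mean of all 11 arrays, a high transgenic signal can carry a dim gene over it. Rrm1, the large subunit of ribonucleotide reductase, has a promoter with a motif of E2F factors, which drive genes of the S phase. The motif was searched on both strands either as TTCCCGC with its variant TTCGCGC, or as TTGCCGC with its variant TTGGCGC, found in 7.89% of promoters, and is in capitals below (chr7:102441445-102441694, plus strand, GRCm38.p6, RefSeq).
Rrm1: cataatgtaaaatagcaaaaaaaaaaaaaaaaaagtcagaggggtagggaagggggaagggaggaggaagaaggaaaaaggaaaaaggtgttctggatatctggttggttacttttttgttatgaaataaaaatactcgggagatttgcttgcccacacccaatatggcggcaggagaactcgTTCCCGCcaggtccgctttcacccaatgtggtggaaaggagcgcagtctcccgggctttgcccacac
Of 14 genes that rose and had a promoter in the table, 1 held an E2F motif in a listed promoter, 1 the C/EBP motif, 1 the NF-kB motif and 0 the STAT motif TTCNNNGAA, which 7.02% of all promoters hold. These counts are per gene, over any of its listed starts, and the shares per promoter.

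Rrm1 gave 276, 253, 338 and 269 in transgenic and 167, 170.4, 143 and 150.1 in wild-type high-fat arrays, and 94.2 to 112 on the normal diet. Within each group the arrays were close together, the 3 groups did not overlap, and Rrm1 rose by 0.84 ± 0.14 (adjusted p = 0.0398). Cdt1, the licensing factor that loads the helicase onto origins, gave 343, 418, 476 and 334 in transgenic and 76.9, 199.5, 119 and 162 in wild-type high-fat arrays, and 153 to 166 on the normal diet. It rose 2.96-fold (log2 1.57 ± 0.25, adjusted p = 0.037), with no overlap between the high-fat groups. Mcm4, a subunit of the helicase, had signals of 175, 298, 323 and 287 in transgenic and 89.7, 166, 91.8 and 89.5 in wild-type high-fat arrays, and 88.4 to 95.5 on the normal diet. Wild-type array 2 was far above the other 3 wild-type arrays and near the lowest transgenic array, and Mcm4 rose by 1.33 ± 0.24 (adjusted p = 0.0482). Ung removes uracil from DNA. It gave 233, 398, 442 and 376 in transgenic and 110.1, 175, 70.3 and 57.5 in wild-type high-fat arrays, and 90.4 to 164 on the normal diet, and it rose 3.75-fold (1.91 ± 0.34, adjusted p = 0.0461). Other helicase subunits did not pass, with Mcm7 at 0.90 ± 0.19 (0.078), Mcm5 at 1.81 ± 0.46 (0.116) and Mcm6 at 3.47 ± 0.89 (0.117), and neither did the primase Prim1 at 1.24 ± 0.29 (0.0963). Mcm6 was dim, so its difference rests on signals of 334, 306, 431 and 266 in transgenic and 85.2, 128, 3.6 and 19.6 in wild-type high-fat arrays.

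Cyclins and genes of mitosis were mostly too dim to test. Of 31 cyclins and mitotic genes on the array, 12 were above the filter, 0 passed, 4 had an unadjusted p under 0.05 with higher signal, and the median was 0.30 (0.16 with the filter at 60%). In the wild-type high-fat mice 2 of the 12 had a mean under the dim limit and 4 a mean under 100. As for the replication genes, a high transgenic signal can carry a dim gene over the filter, which raises this count and median. Ccnd1, the cyclin of the step from G1 into S phase, gave 1129, 2244, 2236 and 1969 in transgenic and 634, 1657, 632 and 740 in wild-type high-fat arrays, and 286 to 629 on the normal diet. Wild-type array 2 lay within the transgenic range, and the difference was 1.13 ± 0.35 (adjusted p = 0.197). The spindle checkpoint gene Mad2l1 was at 0.84 ± 0.20 (0.0998).

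Prtn3, which encodes proteinase 3, a serine protease of neutrophil and monocyte granules, had the largest fitted difference of all called genes. It gave 203, 1418, 252 and 542 in transgenic and 6.1, 13.3, 43.9 and 14.1 in wild-type high-fat arrays, and 7 to 34.6 on the normal diet. The wild-type arrays on both diets were all below the dim limit of 53 and the transgenic arrays all above it, with array 2 well above the others, so the fitted 4.89 ± 0.75 (adjusted p = 0.0317) depends on values near the background. Since the filter takes the mean of all 11 arrays, Prtn3 entered the test only through its transgenic signals. Its rank therefore rests on the group where it is high. Lcn2, a lipocalin that binds bacterial siderophores and is made by neutrophils and by stimulated hepatocytes, gave 1180.1, 3174, 5720 and 8079 in transgenic and 212, 1068, 359.5 and 764 in wild-type high-fat arrays, and 58.7 to 71.8 on the normal diet. Its difference of 2.86 ± 0.57 (adjusted p = 0.0608) did not pass, although the groups did not overlap. The summed signal of 16 neutrophil and myeloid markers was 590.1 to 1606 in wild-type and 1900 to 9231 in transgenic high-fat arrays, and 415.5 to 488.4 on the normal diet, but 13 of the 16 had a mean under the dim limit. Without Lcn2 and Prtn3 the other 14 markers summed to 372.0 to 525.0 in wild-type and 436.0 to 754.0 in transgenic high-fat arrays, and these ranges overlapped. Of the granule genes stored beside Prtn3 in neutrophils, Elane was at 5.6, 82.1, 46.9 and 92.8 in transgenic and 26.1, 17.4, 45.4 and 58.4 in wild-type high-fat arrays, and Mpo was at 5.9, 38.6, 32.5 and 32.9 in transgenic and 19.5, 36.2, 11.2 and 28.4 in wild-type high-fat arrays. The calprotectin genes S100a8 and S100a9, abundant in neutrophils, were dim as well. S100a8 gave 51.4, 75.1, 67.7 and 63.5 in transgenic and 19.9, 50.5, 25.5 and 13 in wild-type high-fat arrays, and S100a9 67.2, 70.3, 75.2 and 69.3 in transgenic and 36.6, 36.8, 54.5 and 12.1 in wild-type high-fat arrays, without overlap for either gene, and all values of these 4 genes were under 100. In whole liver, more cells of a type and more RNA per cell cannot be told apart.

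Summed markers of resident macrophages overlapped between the high-fat groups. Of 16 Kupffer cell and macrophage markers tested 0 passed in limma's test and 2 had an unadjusted p under 0.05, with a median of 0.55. The median was 0.82 without transgenic arrays 3 and 4 and 0.14 without arrays 1 and 2. The summed signal of all 17 markers on the array was 7433 to 19900 in transgenic and 5836 to 14650 in wild-type high-fat arrays, against 4505 to 7394 on the normal diet. Mpeg1, a pore protein of macrophages, gave 1391, 2652, 983 and 2016 in transgenic and 427, 2094, 716 and 764 in wild-type high-fat arrays. Wild-type array 2 lay within the transgenic range, and the difference was 0.98 ± 0.43 (adjusted p = 0.345). Wild-type array 2 also had the highest score of the high-fat wild-type arrays for this list and for interferon-induced genes. The part of cell makeup in the acute phase and replication results was not tested.

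Interferon-induced genes had a median of 0.42 over 29 genes, with 0 passing, 7 at an unadjusted p under 0.05 in the higher direction and 0 in the lower. Ifitm2, a membrane protein that restricts virus entry and was in no list, rose by 0.67 ± 0.12 (adjusted p = 0.0482), with 8227, 9110, 9424 and 10076 in transgenic and 4978, 6992, 5767 and 5460.2 in wild-type high-fat arrays, and 5285 to 7116 on the normal diet. The transgenic arrays were close together and above all others. Its relative Ifitm3 was at 0.77 ± 0.19 (0.102), and Tap1, which carries peptides to MHC class I, at 0.71 ± 0.20 (0.142). All 13 antigen presentation genes tested lay above 0, with a median of 0.35 and 0 passing. Transgenic array 2 had the highest score for that list, 0.81 against 0.14 to 0.22 in the other transgenic arrays, where a score is the median log2 deviation of the members from the wild-type high-fat mean. Wild-type high-fat array 2, at 0.18, was above transgenic arrays 1 and 4. Its interferon score of 0.695 was above those of transgenic arrays 1, 3 and 4 (0.397, 0.277 and 0.421). In both lists the other wild-type high-fat arrays lay below all transgenic arrays.

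Of 32 glutathione S-transferases and NRF2 targets 1 fell and 10 had an unadjusted p under 0.05 in the lower direction, 0 in the higher, and the median was -0.24. Gsta2, an alpha-class transferase, gave 712, 219.7, 188 and 235 in transgenic and 1448, 2133, 867 and 974 in wild-type high-fat arrays, and 1736 to 2859.5 on the normal diet. Transgenic array 1 stood above the other transgenic arrays and just below the lowest wild-type array, and the fall was 4.41-fold (log2 -2.14 ± 0.40, adjusted p = 0.0482). Gsta3, a bright member of the same class, gave 11004, 12879, 9132 and 12561 in transgenic and 16847, 14684, 17963 and 17321 in wild-type high-fat arrays, and 16026 to 16856 on the normal diet, with no overlap and a difference of -0.56 ± 0.11 that did not pass (0.0608). Among 14 genes of glucuronidation, sulfation and acetylation 1 fell, 7 had an unadjusted p under 0.05 in the lower direction and 1 in the higher, and the median was -0.37. The one that fell was Nat8, an N-acetyltransferase that completes mercapturic acid synthesis, at 361, 321, 339 and 216 in transgenic and 938, 756, 699 and 521 in wild-type high-fat arrays, and 421 to 631 on the normal diet. It was 2.35-fold lower (-1.23 ± 0.21, adjusted p = 0.0398). The sulfotransferase Sult1b1 was at -0.76 ± 0.18 (0.0998) and the glucuronosyltransferase Ugt2a3 at -0.46 ± 0.12 (0.131).

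Of 17 carboxylesterases, paraoxonases and carbonic anhydrases 3 fell and 0 rose, against 0.139% and 0.227% of all genes. At an unadjusted p under 0.05, 7 were lower and 0 higher, against 6.74% and 6.95% of all genes. The median was -0.36 (-0.16 without transgenic arrays 3 and 4, -0.30 without arrays 1 and 2). Ces1d, a bright esterase that hydrolyses triglyceride and drugs, gave 6499.8, 6569, 7165 and 8087 in transgenic and 14129, 9004, 14059 and 13179 in wild-type high-fat arrays, and 12277 to 13527 on the normal diet. Wild-type array 2 was lowest of its group and still above every transgenic array, and Ces1d fell by 0.81 ± 0.14 (adjusted p = 0.0398). Its neighbour Ces1e gave 2043, 1906, 1946 and 2062 in transgenic and 4472, 3739.5, 4311 and 3028 in wild-type high-fat arrays, and 3741 to 6220 on the normal diet. The transgenic arrays lay within a narrow band, and Ces1e fell by 0.95 ± 0.16 (0.0398). Car1, a carbonic anhydrase also known as an erythroid gene, was dim, at 131, 108, 134 and 138 in transgenic and 259, 224, 331 and 222 in wild-type high-fat arrays, and 255 to 313 on the normal diet. It fell 2.01-fold (adjusted p = 0.037). Of the 4 other erythroid markers tested 0 passed, but only 0.366% of all genes did, so that count is no result about them. Cytochromes P450 of drug metabolism had no common direction, with 12 of 26 above 0 and a median of -0.075. Cyp3a13, one of the main drug-oxidising family, rose 3.5-fold (1.81 ± 0.34, adjusted p = 0.0488), with 4136, 3832, 2240.2 and 5669 in transgenic and 1168, 1033, 1018 and 1092 in wild-type high-fat arrays, and 713 to 2424 on the normal diet. The wild-type high-fat arrays were nearly equal, and the normal-diet arrays spread from below them into the transgenic range. Cyp1a2 was at -0.59 ± 0.18 (0.197), Cyp2d9 at -0.75 ± 0.23 (0.184), and Cyp2c39 at 3.23 ± 1.11 (0.228) with overlapping groups.

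**Figure D4:**
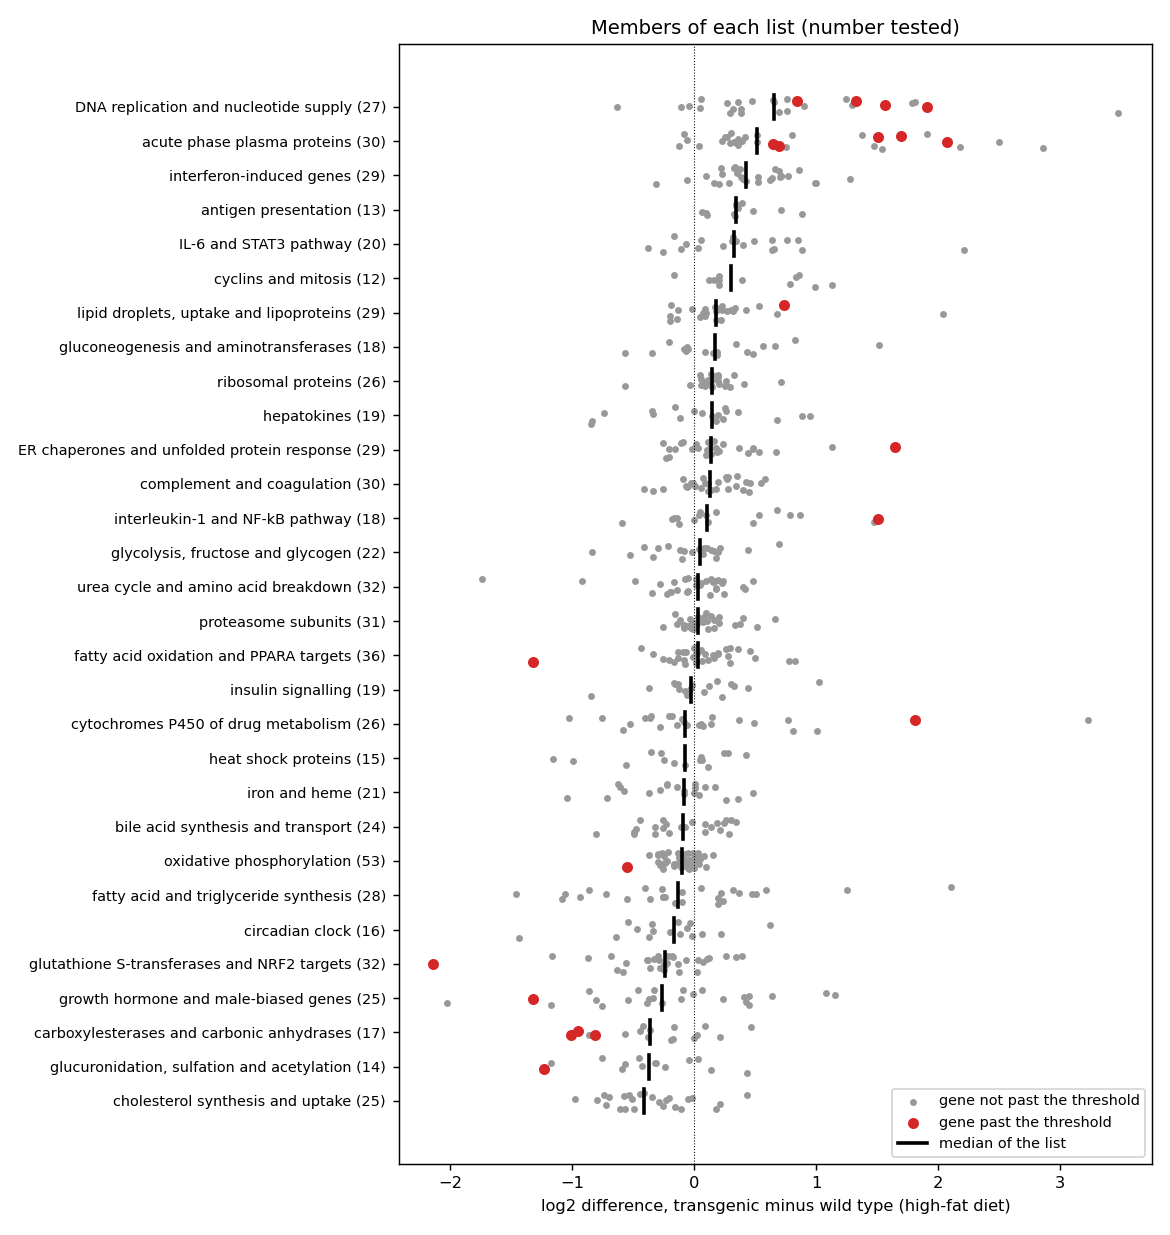
Each row is a gene list with the number of members tested, each point a member's log2 difference between transgenic and wild-type mice on the high-fat diet, and the black bar the median. Medians run from above 0 for DNA replication (0.66) and acute phase genes (0.51) to below 0 for cholesterol synthesis (-0.41) and glucuronidation (-0.37), and called members are coloured.

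Oxidative phosphorylation differed little in size and mostly in one direction. Of 53 subunits tested 1 fell, 13 had an unadjusted p under 0.05, all lower, and 44 lay below 0, at a median of only -0.098. Ndufb6, a subunit of respiratory complex I, gave 3354, 3264, 2903 and 2959 in transgenic and 4743, 4322, 4278 and 4902 in wild-type high-fat arrays, and 4390.4 to 4529 on the normal diet. Wild-type arrays overlapped between the diets, and Ndufb6 fell by 0.55 ± 0.083 (adjusted p = 0.0317). Its other probe set gave 3508.5, 3220.7, 3236.3 and 2910.2 in transgenic and 3649.8, 3478.3, 3759.3 and 3383.7 in wild-type high-fat arrays. There the groups overlapped, at a difference of -0.15 ± 0.085 with an unadjusted limma p of 0.101, so the call rests on 1 of 2 probe sets. Its promoter is printed because it holds 2 copies of the STAT motif TTCNNNGAA (in capitals, chr4:40279422-40279671, minus strand, GRCm38.p6, RefSeq). Of 8 genes that fell and had a promoter in the table, 2 hold this motif in at least 1 listed promoter, Ndufb6 and Mme (1 of its 3 starts). Among all single promoters 7.02% hold it. A gene with several starts has more chances to hold a motif, so the count and the share are not alike and show no enrichment.
Ndufb6: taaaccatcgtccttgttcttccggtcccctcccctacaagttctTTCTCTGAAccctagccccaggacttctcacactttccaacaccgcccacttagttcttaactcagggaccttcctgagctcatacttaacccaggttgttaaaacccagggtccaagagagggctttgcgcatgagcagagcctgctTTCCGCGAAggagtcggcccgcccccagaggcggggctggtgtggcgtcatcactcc
Next in order, Ndufb3 was at -0.37 ± 0.096 (0.118) and Ndufb9 at -0.25 ± 0.071 (0.151). Ndufb3 gave 1775, 1779, 2066 and 1659 in transgenic and 2402, 2097, 2425 and 2500.2 in wild-type high-fat arrays, without overlap.

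Lipid genes gave few calls. Among 29 genes of lipid droplets, uptake and lipoproteins 1 rose, Apom, the apolipoprotein that carries sphingosine 1-phosphate on HDL, with 7497, 7554, 6291 and 7239 in transgenic and 4154, 4406, 4511 and 4051 in wild-type high-fat arrays, and 4394 to 7174 on the normal diet. The rise over wild-type high-fat mice was 0.74 ± 0.14 (adjusted p = 0.0482), and 1 normal-diet array lay within the transgenic range. The fatty acid binding protein Fabp5 was at 2.04 ± 0.62 (0.186) with 4659.5, 6366, 1364 and 1936 in transgenic and 421, 2149, 629.7 and 487 in wild-type high-fat arrays, so that transgenic arrays 1 and 2 were high and arrays 3 and 4 overlapped the wild-type range. Of 25 genes of cholesterol synthesis and uptake 0 passed, 5 had an unadjusted p under 0.05, all lower, and 22 lay below 0, with a median of -0.41 (-0.21 without transgenic arrays 3 and 4, -0.41 without arrays 1 and 2). Hmgcs1, which makes the precursor of mevalonate, gave 3831, 4054, 2370.5 and 2634 in transgenic and 3369, 6479, 7604 and 8708 in wild-type high-fat arrays, and 5498 to 9392 on the normal diet. Wild-type array 1 was as low as the transgenic arrays, and the difference was -0.97 ± 0.29 (adjusted p = 0.169). Of 28 genes of fatty acid and triglyceride synthesis 0 passed, with 5 higher and 5 lower at an unadjusted p under 0.05 and a median of -0.13 (0.0031 without transgenic arrays 3 and 4, -0.23 without arrays 1 and 2). Me1, the malic enzyme that supplies NADPH, gave 996, 799, 855 and 662 in transgenic and 1288, 1269, 2363 and 2323 in wild-type high-fat arrays, and 3179 to 5512 on the normal diet. The 3 groups did not overlap, with the normal diet highest and the transgenic mice lowest, and the difference between the high-fat groups was -1.08 ± 0.24 (0.0876). Scd1, the main desaturase of the liver, was at -1.06 ± 0.32 (0.179), with 7716, 17575, 4075 and 9503 in transgenic and 17239.5, 16889.8, 17445 and 19560.3 in wild-type high-fat arrays. Transgenic array 2 lay within the wild-type range and the others far below it. In the list of fatty acid oxidation and PPARA targets, 1 of 36 fell, Cyp4a12a, the median was 0.029, and it was -0.23 without transgenic arrays 3 and 4 and 0.32 without arrays 1 and 2.

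Cyp4a12a, a fatty acid hydroxylase that depends on growth hormone pulses and androgen and is typical of male liver, gave 3489, 2400, 2888 and 6108 in transgenic and 9037, 7416, 9221 and 9322 in wild-type high-fat arrays, and 6741 to 8944 on the normal diet. It fell 2.5-fold (-1.32 ± 0.23, adjusted p = 0.0436), with transgenic array 4 highest of its group, and it was the 1 called gene that still passed without transgenic arrays 3 and 4. Of 25 growth hormone and male-biased genes 1 fell and 0 rose, and the median was -0.26 (-0.055 without transgenic arrays 3 and 4, -0.40 without arrays 1 and 2). Igfbp2, a binding protein of insulin-like growth factors, gave 16097, 9803, 19068 and 15986 in transgenic and 7432, 9539, 5788 and 5813 in wild-type high-fat arrays, and 5738 to 8072 on the normal diet. The groups did not overlap, though wild-type array 2 and transgenic array 2 nearly met, at 1.08 ± 0.21 (adjusted p = 0.0608). The growth hormone receptor gene Ghr was at -0.39 ± 0.095 (0.103), with 9751, 8739, 7925 and 10431 in transgenic and 12620.4, 11434, 12584 and 11397 in wild-type high-fat arrays, also without overlap. Insulin signalling had 0 of 19 passing and 1 gene in each direction at an unadjusted p under 0.05. These were Pik3r1, the regulatory subunit of PI3 kinase, at -0.85 ± 0.21 (0.104), and the receptor substrate Irs2 at 1.03 ± 0.42 (0.311).

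Called genes that belonged to no list numbered 9. Gfra1, the receptor of the neurotrophic factor GDNF, had the smallest p of all genes, with 1527, 1735, 1670.3 and 1974 in transgenic and 996, 935, 901 and 1023 in wild-type high-fat arrays, and 812 to 952 on the normal diet. Arrays of one group were close together, and Gfra1 rose by 0.84 ± 0.10 (adjusted p = 0.0217). It passed in 16 of the 20 other settings, more than any other called gene. Lrg1, a secreted leucine-rich glycoprotein, rose by 0.92 ± 0.15 (0.037), with 14293, 15755, 18149 and 19506 in transgenic and 9490.4, 6942, 9015 and 10587 in wild-type high-fat arrays, and 5252 to 7229 on the normal diet. The transgenic arrays of Lrg1 were above all others, and the wild-type groups overlapped. Rdh16f2, of a family of retinol and sterol dehydrogenases, rose 2.71-fold (0.0317), with 3784, 2509, 3917 and 3233 in transgenic and 1148, 1780.4, 1357 and 799 in wild-type high-fat arrays. Aig1, a membrane hydrolase of fatty acid esters, rose 2.29-fold (0.0482), with 399, 564, 549 and 694 in transgenic and 220.4, 272, 328 and 158 in wild-type high-fat arrays. Both had no overlap. Mme, the membrane peptidase neprilysin, gave 721, 582, 334 and 364 in transgenic and 1355, 993, 1215 and 966 in wild-type high-fat arrays, and 1127 to 1497 on the normal diet. It fell 2.36-fold (-1.24 ± 0.23, adjusted p = 0.0482), and the 2 lowest arrays were transgenic arrays 3 and 4. Without them the difference was -0.79. Ropn1l, a protein of cilia and sperm flagella, fell by 0.76 ± 0.12 (0.0317), with 327, 432, 393 and 373 in transgenic and 577, 729, 597 and 680.4 in wild-type high-fat arrays. Lactb, a mitochondrial protein related to beta-lactamases, fell by 0.67 ± 0.13 (0.0482), with 745, 634, 646 and 616 in transgenic and 1070.3, 948, 1292 and 921 in wild-type high-fat arrays. Ankrd40 fell by 0.59 ± 0.11 (0.0482), with 321, 338, 304 and 342 in transgenic and 524, 442, 513 and 489 in wild-type high-fat arrays. Each of these was without overlap.

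Among chaperones Dnajc12, a co-chaperone that serves the aromatic amino acid hydroxylases, rose 3.13-fold (1.64 ± 0.29, adjusted p = 0.0461), with 1308, 3677, 1422 and 2690.3 in transgenic and 652, 858, 623 and 552 in wild-type high-fat arrays, and 507 to 709.9 on the normal diet. Transgenic arrays 2 and 4 were well above arrays 1 and 3, and all 4 were above the rest. It was the 1 of 29 chaperones and unfolded protein response genes that passed, with 8 at an unadjusted p under 0.05 in the higher and 1 in the lower direction, and a median of 0.14. Sdf2l1 was at 1.13 ± 0.29 (0.12), with 596, 491, 427 and 527 in transgenic and 321, 304, 237 and 126 in wild-type high-fat arrays and no overlap. Ribosomal proteins had a median of 0.15 with 0 of 26 passing. Of 18 genes of gluconeogenesis and aminotransferases 0 passed and the median was 0.17, where Fbp1 had 0.35 ± 0.089 (0.118) and Got1, an aminotransferase, 1.51 ± 0.44 (0.169). Of 16 clock genes 0 passed and the median was -0.17, with the repressor Cry1 at -1.44 ± 0.33 (0.0963).

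Among genes that did not pass, Sucnr1, the succinate receptor, came nearest of those named by size, at -1.23 ± 0.23 (adjusted p = 0.0504), with 752, 550.3, 373 and 353 in transgenic and 1356, 1176, 931 and 1100.1 in wild-type high-fat arrays, and 760 to 1199 on the normal diet. Tsc22d1 was at -1.64 ± 0.33 (0.0608), with 1161, 1212, 617 and 1228 in transgenic and 4510.2, 1653, 4161 and 3276 in wild-type high-fat arrays. Transgenic array 3 was far below the other transgenic arrays there. Csad, which makes the taurine precursor hypotaurine, was at -1.74 ± 0.41 (0.102), and it passed without transgenic arrays 3 and 4, at -2.58 (0.0222). Slc41a2, a magnesium transporter, was at 1.61 ± 0.32 (0.0608) with 1024, 1685, 855 and 1389 in transgenic and 404, 245, 338 and 708 in wild-type high-fat arrays. Hsd3b5, a male-specific steroid dehydrogenase, was at -2.02 ± 0.83 (0.303), with 2968, 3906, 151 and 2281 in transgenic and 8275, 5346, 4569.9 and 5389 in wild-type high-fat arrays. Transgenic array 3 was far the lowest.

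Scores by array show which mice carried each pattern. For acute phase genes the score was 0.43, 0.51, 0.51 and 0.63 in transgenic arrays, -0.036, -0.052, 0.081 and 0.042 in wild-type high-fat arrays and -0.26 to -0.064 on the normal diet. For DNA replication it was 0.64, 0.60, 0.64 and 0.72 in transgenic arrays, -0.053, 0.25, -0.035 and -0.12 in wild-type high-fat arrays and -0.40 to 0.099 on the normal diet. In both lists the 4 transgenic arrays were alike and above the 7 wild-type arrays, with transgenic arrays 3 and 4 near arrays 1 and 2. For glutathione S-transferases and NRF2 targets the score was -0.18, -0.24, -0.24 and -0.23 in transgenic arrays, 0.0021, -0.12, 0.11 and 0.012 in wild-type high-fat arrays and 0.007 to 0.10 on the normal diet. For oxidative phosphorylation it was -0.12, -0.14, -0.069 and -0.074 in transgenic arrays, 0.026, -0.0048, 0.022 and -0.031 in wild-type high-fat arrays and -0.016 to -0.0029 on the normal diet. Here too the transgenic arrays lay together, below all wild-type arrays of both diets. The score of growth hormone and male-biased genes was -0.13, 0.022, -0.57 and 0.016 in transgenic arrays, 0.089, -0.081, 0.016 and 0.018 in wild-type high-fat arrays and -0.28 to 0.15 on the normal diet, so transgenic array 3 was low and arrays 2 and 4 lay inside the wild-type high-fat range. The hepatocyte marker score was -0.021, 0.011, 0.44 and 0.45 in transgenic arrays, 0.0024, -0.0038, 0.026 and -0.00062 in wild-type high-fat arrays and -0.21 to 0.045 on the normal diet, so transgenic arrays 3 and 4 were high. Their top signals are those of Apoa1, itself a hepatocyte marker (42425.5 and 43272.9). The high score and the top signals are therefore not separate traits of these arrays. Under quantile normalization the median over the hepatocyte markers was 0.038 in place of 0.19, that of acute phase genes was 0.48, and each list median given above kept its sign.

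**Figure D5:**
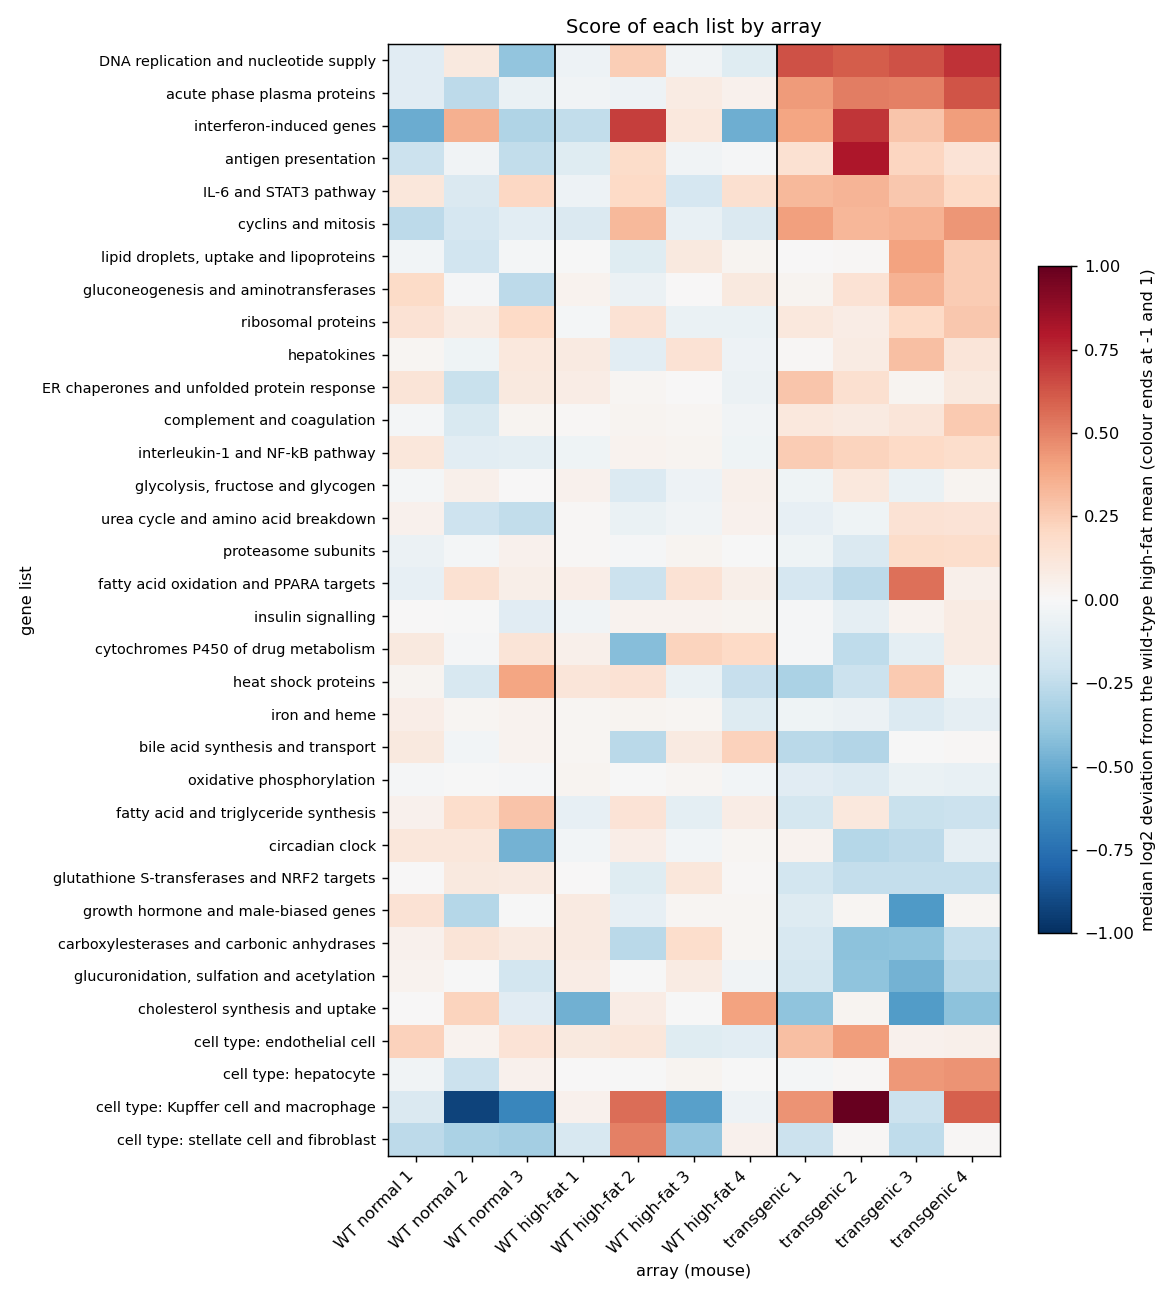
Rows are gene lists and columns the 11 arrays, and the colour gives the median log2 deviation of a list's members from the wild-type high-fat mean, with colours ending at -1 and 1. Acute phase and DNA replication genes are above 0.4 in each of the 4 transgenic arrays, while hepatocyte markers are high in transgenic arrays 3 and 4 alone.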

How the data were processed

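Liver RNA of 11 mice was hybridised to one oligonucleotide array each. The deposited values are linear intensity values (signal) made by the authors with MAS5 (version not given), per the submitters' processing notes. MAS5 treats each array alone and scales it, so the shape of its distribution is not equalised, and detection calls were not used here. Groups came from the sample titles. The 64 control probe sets and those with several gene symbols (691) or none (1555) in the platform annotation were left out. Of 20380 with 1 symbol, 20351 were found in RefSeq by Entrez identifier. Signals under 1 were set to 1 (1385 values) and log2 taken. The dimmest 40% of probe sets, with a mean signal under about 53, were dropped, and the brightest stood for each gene.

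Differences were tested two-sided with limma 3.58.1 in R 4.3.3 (lmFit, eBayes with trend, a mean per group, all 11 arrays, 8 residual degrees of freedom), Benjamini-Hochberg adjusted over 7924 genes. The script was tested on simulated data. The gene lists and the comparison were chosen with earlier results of these data known. Lists were described without a test. Named genes were taken from the called genes, the 3 members of smallest p in a list, cell type markers, and the 10 largest uncalled differences each way without overlap, and not all of these are printed. Alternatives were log2(signal + 32), quantile normalization, other filters, every probe set tested, robust eBayes and eBayes with no trend, array weights, a fit of 8 arrays, a replicate block, and leaving out arrays. Precision is limited by how few arrays there are.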

Additional observations from a re-analysis of the deposited data

Results flagged for a closer look

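In some genes and list scores 1 of the 4 arrays of a group lay far from the other 3, by the gap to its neighbour over the group's whole log2 range, set against Dixon's 95% critical value. This held for 24 of 390 groups of values, where chance gives about 1 in 20, or 19.5.

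In wild-type high-fat mice, array 2 stood apart for Mcm4 (0.959, high), Ccnd1 (0.836, high), the list score of cyclins and mitosis (0.848, high), Ces1d (0.845, low), Cyp4a12a (0.864, low) and Pygl (0.96, low). Array 1 was low for Slc15a2 (0.865) and for the insulin signalling score (0.844). Array 3 was high for Apoa2 (0.854). Array 4 was low for Irs2 (0.862) and for the iron and heme score (0.976).

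In transgenic mice, array 1 was high for Gsta2 (0.833) and for the score of glutathione S-transferases and NRF2 targets (0.898), and low for Irf9 (0.905) and Pik3r1 (0.924). Array 2 was high for the antigen presentation score (0.88) and the score of fatty acid and triglyceride synthesis (0.867). Array 3 was low for Hsd3b5 (0.835), Tsc22d1 (0.918), Car3 (0.876), Clec4g (0.912) and Cyp7b1 (0.917). Array 4 was low for Elovl2 (0.838) and high for the complement and coagulation score (0.838).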

How the results depend on the processing

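The 29 called genes kept their direction under every alternative run. Except under quantile normalization this was fixed beforehand, because the groups did not overlap or the differences were left unchanged. Only 295 of their 576 values under the alternatives were past the threshold. Besides settings near 29 calls, the count was 12 (7 higher, 5 lower) without a filter on dim probe sets, 48 (30 and 18) over all probe sets, 0 without an intensity trend (0 and 0, with 1045 genes at an unadjusted p under 0.05), 58 (42 and 16) with array weights and 8 (6 and 2) with only the high-fat arrays. Robust eBayes gave 7 lower genes. Leaving out 1 array gave 0 to 64 calls, 0 to 41 higher and 0 to 23 lower. It was 4 (2 and 2) without transgenic arrays 3 and 4, and 158 (79 and 79) without arrays 1 and 2. The replicate number as a block in the 8 high-fat arrays gave 66 calls (41 and 25), 24 of them shared with the 29. Arrays sharing a number correlated in their deviations at 0.0842, 0.292, 0.135 and 0.122, each array correlating best with its own number, but the labels give the number no meaning, so it was not used for pairing. With array weights the split of calls was 72.4% higher. Of the list medians under these alternatives, 763 moved by less than the spread between replicates and 34 by more. Part of the 763 could not move at all. The eBayes options, the fit of 8 arrays and the replicate block leave the differences as they are. Reversed signs concerned genes that did not pass. Leaving out 1 array gave Fabp4 -0.078 to 0.24 (-0.071 without transgenic array 2), Ighm -0.19 to 0.30, Csf3r -0.052 to 0.44, Hbb-b2 -0.091 to 0.40, Akt1 -0.0034 to 0.14, Atp2a1 -0.095 to 0.36 and Krt23 -0.77 to 0.011. Without transgenic arrays 1 and 2, Ighm was at -0.15 and Csf3r at -0.12, and without arrays 3 and 4, Atp2a1 was at -0.45 and Car2 at -0.084. The cause was not tested.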
